A study of Mus musculus with 2 samples.

Results

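Mural cells, the pericytes and smooth muscle cells that wrap the outer wall of blood vessels, were picked out of a single-cell RNA-seq data set of mouse skin wounds. A cell counted as mural when it had at least 3 unique molecular identifier counts (UMIs, each standing for 1 captured RNA molecule) of Rgs5, at least 2 of Notch3, Pdgfrb, Abcc9 and Higd1b together, at most 1 of Cdh5 and Pecam1 together, fewer than 5 of Lyz2 and less than 0.5% of its UMIs from Krt5 and Krt14. Of 15514 cells with at least 500 detected genes and at most 6% of UMIs from mitochondrial genes, 160 met the rule, 55 in the PBS library and 105 in the DTX library. The rule uses the cells' own RNA, so the levels of these genes, and of any gene that sets the selected cells apart from the rest, are given as a description.

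Live, 7AAD-negative cells had been sorted from wounds of the back skin 5 days after wounding, taken with a 10 mm punch from C57BL/6 mice aged 7 to 9 weeks, and profiled with the 10x Genomics Chromium 3′ v3 chemistry. In Mrc1-DTR mice the promoter of Mrc1, which encodes the macrophage mannose receptor CD206, drives the diphtheria toxin receptor, so that diphtheria toxin kills cells that use this promoter. Both libraries carry the genotype label Mrc1-DTR, and the treatment labels are PBS for one and diphtheria toxin (DTX) for the other. The study's methods, in contrast, describe wild-type controls that also received the toxin, and its text gives the cell number of the library labelled PBS to Mrc1-DTR mice and that of the library labelled DTX to controls. The makeup of the wounds that it describes, with more immune cells and fewer fibroblasts and epithelial cells in Mrc1-DTR mice, runs as the labels do. PBS and DTX below follow the labels. Each library came from 3 mice without a label for the mouse of a cell, and the methods name 2 technical replicates and no biological replicate. With 1 library per treatment no difference between PBS and DTX could be tested. All intervals below are 95% intervals and cover counting error only.

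Pericytes share a basement membrane with the endothelium and are held there by PDGF-B acting on Pdgfrb, while Notch3, activated by Jagged ligands, maintains the mural state. Vascular smooth muscle cells carry the contractile proteins of the arterial wall, and between them and capillary pericytes lies a graded series of forms. In inflamed tissue mural cells are known sources of chemokines that act on neutrophils and monocytes leaving the vessel.

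The leading genes outside the selection rule include known genes of mural cells. Levels are in CPM, a gene's UMIs scaled to 1000000 UMIs of the summed cells, and the 10 genes outside the rule with the highest ratio to all other kept cells in both libraries were H2-M9, Myh11, Cox4i2, Gm13889, Myl9, Tagln, Acta2, Actg2, Adra2a and Des. Myh11, Myl9, Tagln, Acta2, Actg2 and Des belong to the contractile apparatus or the muscle cytoskeleton, Cox4i2 is a subunit of mitochondrial complex IV, and Adra2a is an adrenergic receptor. H2-M9, a class Ib histocompatibility gene (GRCm38 chr17:36639285-36642666), was at 136 CPM in PBS mural cells against 0.194 CPM in the other cells, and at 204 against 0.656 CPM in DTX. Gm13889 was at 2655 against 35.9 CPM in PBS and at 3741 against 40.4 CPM in DTX. The presence of the selection genes was fixed by the rule. Of these, Rgs5, a regulator of G-protein signalling, stood at 4435 and 5956 CPM, Notch3 at 328 and 366 CPM, the PDGF receptor Pdgfrb at 203 and 181 CPM, and the potassium channel subunit Abcc9 at 146 and 272 CPM.

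**Figure D1:**
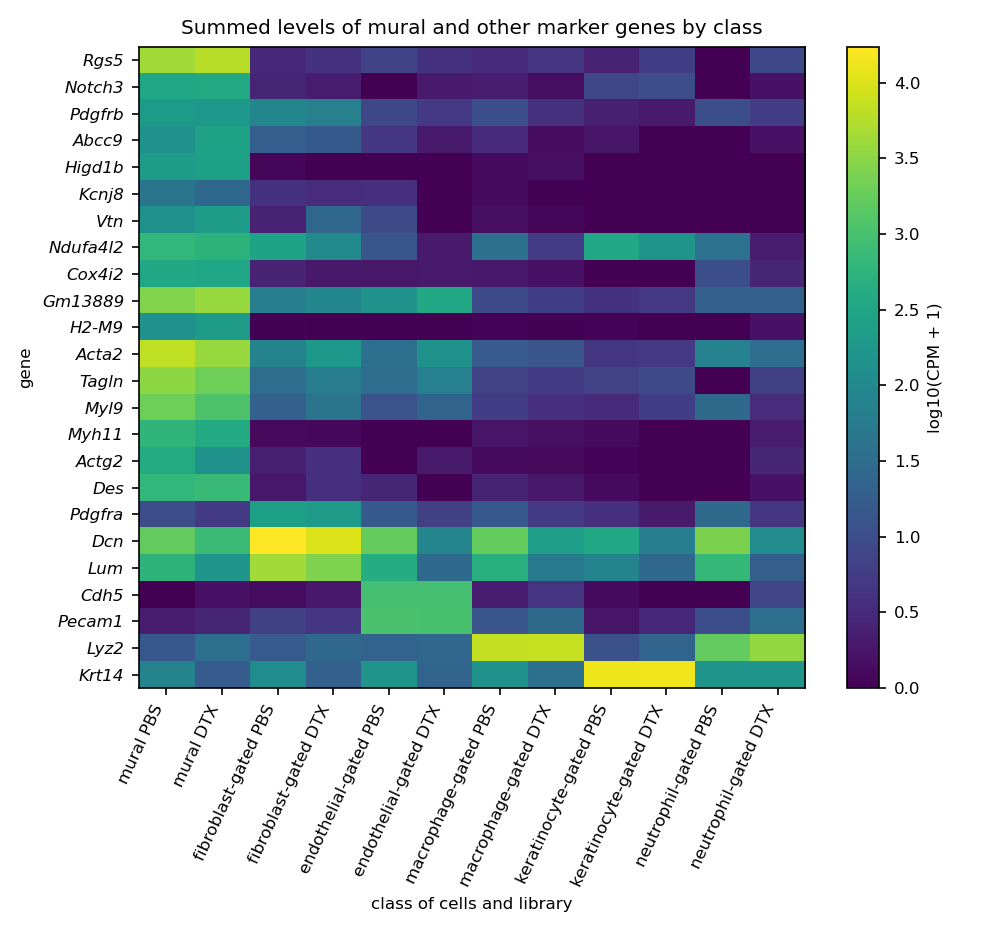
Heat map of summed levels, colour giving log10 of CPM plus 1, for 24 genes (rows) in mural cells and in the fibroblast-, endothelial-, macrophage-, keratinocyte- and neutrophil-gated cells of each library (columns). The first 2 columns, the mural cells, are bright for Rgs5 and for the contractile genes, with Acta2 at 6701 CPM in PBS and 3871 CPM in DTX, and dark for the endothelial genes Cdh5 and Pecam1.

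Defining genes of other cell types, some of which the rule limits (Cdh5, Pecam1, Lyz2, Krt5 and Krt14), were mostly at or near 0. Of the 10 endothelial markers Kdr and Cldn5 had 0 UMIs in both libraries, and the list summed to 265 CPM in PBS and 225 CPM in DTX, with Esam, which pericytes also express, as its most abundant gene. The 12 macrophage markers summed to 65.9 and 126 CPM, led by Lyz2, and Mrc1 itself had 2 and 5 UMIs in all mural cells. The 8 neutrophil markers summed to 45.8 and 91.6 CPM, most of it Il1r2, a decoy receptor for interleukin 1, at 41.3 and 71.8 CPM, with S100a8 at 0 and 5 and S100a9 at 0 and 11 UMIs. Schwann cell markers summed to 27.9 and 37.1 CPM with Sox10 at 0, lymphoid markers to 26.8 and 27.8 CPM, skeletal muscle markers to 1.12 and 4.95 CPM, and erythroid and platelet markers to 12.3 and 8.66 CPM. The fibroblast list was an exception, at 12601 and 9311 CPM, as was the keratinocyte list in PBS, described next. The fibroblast list is led by Col3a1 and other collagens, which mural cells also make, and Pdgfra had 8 and 7 UMIs. The part of fibroblast RNA in these sums was not tested.

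Keratinocyte RNA differed between the libraries. In 4 PBS mural cells 0.888% to 5.00% of UMIs fell in the 10 keratinocyte markers, and these 4 cells held 94.0% of the list's 3159 UMIs. Summed over all mural cells the list stood at 3529 CPM in PBS and 94.1 CPM in DTX. The next PBS mural cell had 0.0964% and the highest DTX mural cell 0.0429%. Values without these 4 cells, an alternative chosen after seeing the data, are given beside several of the lists. Mural cells of the libraries shared no barcode, although 37 deposited barcodes occurred in both and 1 DTX mural barcode was also that of another PBS cell. Near the edge of the rule, 1 PBS member had exactly 3 Rgs5 UMIs and no DTX member did, while 0 PBS cells and 1 DTX cell that met the other conditions had 2. The median member had 57 Rgs5 UMIs in PBS and 70 in DTX.

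The gene whose promoter drives the toxin receptor was measured as well. Macrophage-gated cells, chosen on Lyz2 and on Csf1r, Cd68 and Adgre1, had Mrc1 at 407 CPM (395 to 418) in PBS and at 416 CPM (409 to 423) in DTX, and these intervals overlap. They numbered 1657 in PBS and 4287 in DTX. Neutrophil-gated cells numbered 52 and 380, fibroblast-gated cells 1115 and 245, and keratinocyte-gated cells 788 and 61.

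Mural cells took a larger share of the DTX library when no upper limit was set on genes per cell. They were 0.661% of kept cells in PBS (55 of 8326, exact binomial interval 0.498% to 0.859%) and 1.46% in DTX (105 of 7188, 1.20% to 1.77%), a ratio of 2.21. Endothelial-gated cells, on whose vessels mural cells sit, were 0.913% (0.720% to 1.14%) and 0.849% (0.650% to 1.09%), with overlapping intervals. There were thus 0.724 mural cells per endothelial-gated cell in PBS and 1.72 in DTX. Fibroblast-gated cells were 13.4% and 3.41% of kept cells, and the number of mural cells per fibroblast-gated cell was 0.0493 and 0.429. These shares have the other cells of a library in their denominator, among them the macrophage-gated cells counted above. With a mitochondrial limit of 10% the shares were 1.13% and 2.23%, and the DTX share was again larger. An upper limit of 2000 genes per cell, a filter that the study's methods name and that was not applied here, left 3 mural cells in each library, and the shares of 0.119% and 0.114% then did not show the difference.

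**Figure D2:**
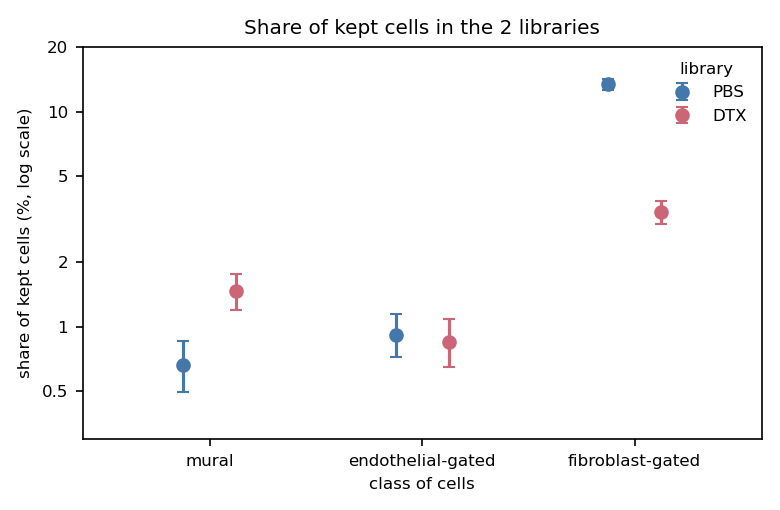
Share of kept cells (vertical axis, percent, log scale) that were mural, endothelial-gated or fibroblast-gated in the PBS and DTX libraries, with points for the share and bars for exact binomial 95% intervals. The mural share was 0.661% in PBS and 1.46% in DTX with separate intervals, and the endothelial shares of 0.913% and 0.849% had overlapping ones.

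Depth per mural cell was similar. UMIs per cell ranged from 4809 to 35748 with a median of 15947 in PBS, and from 1673 to 34359 with a median of 14834 in DTX. The median numbers of detected genes were 3739 and 3542, and the median mitochondrial shares 4.62% and 5.06%. Summed, the cells gave 895245 and 1615938 UMIs.

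Differences between the libraries were computed for 5539 genes with at least 50 UMIs over the 160 cells, as the log2 ratio of DTX to PBS after 1 CPM was added to each. This filter takes the UMIs of both libraries together, and the DTX cells gave more of them. A gene near 0 in PBS could thus be compared through DTX alone, which favours genes high in DTX. The median log2 ratio was -0.02. Of these genes 2.67% were at least 2-fold higher and 2.58% at least 2-fold lower in DTX, and without the 4 keratin-carrying cells 2.72% and 1.79%. Against this background 10 of the 21 compared genes of the chemokine and cytokine list were at least 2-fold higher, as were 7 of 16 interferon-stimulated genes. Among 18 contractile genes none was 2-fold higher and 3 were 2-fold lower.

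**Figure D3:**
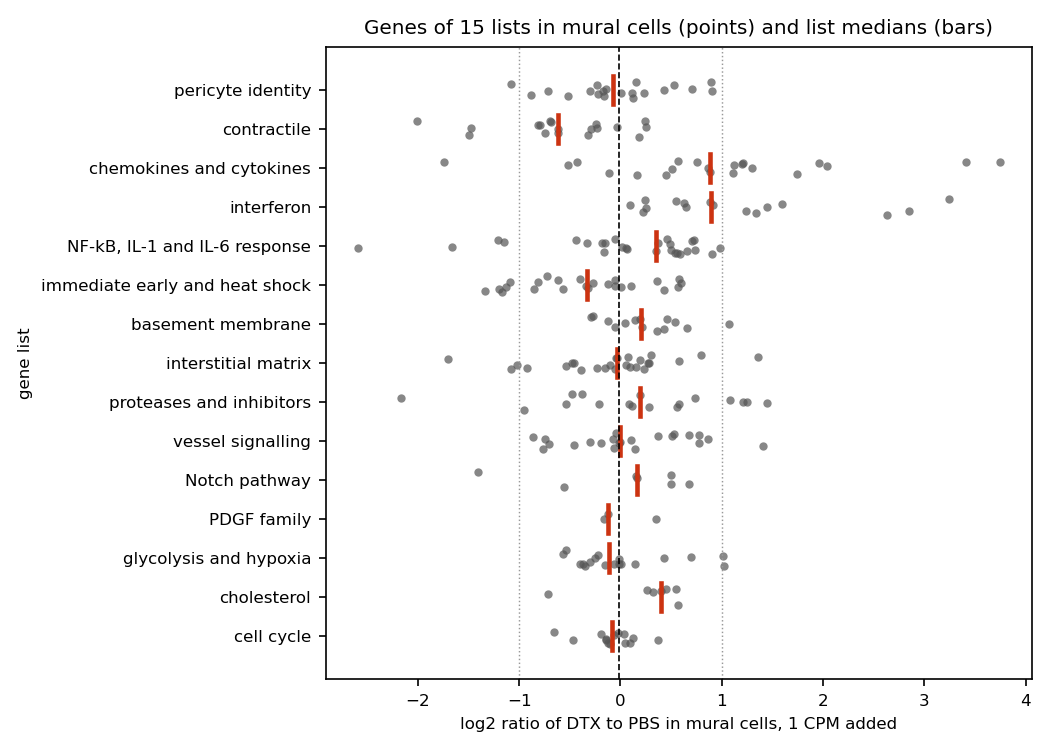
Log2 ratio of DTX to PBS in mural cells with 1 CPM added (horizontal axis) for each compared gene (grey points) of 15 lists (rows), with the list median as a red bar and dotted lines at 2-fold. Chemokines and interferon genes lie mostly to the right, with medians of 0.88 and 0.90, and contractile genes to the left, with a median of -0.61.

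Chemokines and cytokines were among the most abundant transcripts of the mural cells and were mostly higher in DTX. The list made up 2.40% of all mural UMIs in PBS and 3.84% in DTX, 17 of its 21 compared genes were higher in DTX and 4 lower in DTX, and the median log2 ratio was 0.88. Without the 4 keratin-carrying cells the median was 0.76, with 17 of 21 higher. With no filter on UMIs 17 of 24 were higher and 7 lower, and the median was 0.81. Ligands of the neutrophil receptor CXCR2 were among its most abundant genes. Cxcl1 (GRCm38 chr5:90891241-90893115) ranged over PBS cells from 1543 CPM through a median of 6860 to 26686 CPM, and over DTX cells from 166 through 10248 to 38863 CPM. The cells of the libraries overlap over nearly the whole range, every mural cell had a Cxcl1 UMI, and the summed level was 7281 CPM in PBS and 12304 CPM in DTX (log2 ratio 0.76, 0.72 to 0.80). Cxcl2 (chr5:90903871-90905938) was at 2820 and 5139 CPM (0.87, 0.80 to 0.93), and Cxcl3 at 560 and 1382 CPM (1.30, 1.16 to 1.45). Cxcl5 (chr5:90759360-90761624) was not found in every cell. Its median cell was at 33.7 CPM in PBS and 1484 CPM in DTX, the highest cells at 10410 and 18462 CPM, and 28 of 55 and 72 of 105 cells had a UMI. After thinning each cell to 2000 UMIs, which kept 55 and 104 cells, Cxcl5 was found in 36.4% (23.8% to 50.4%) and 59.6% (49.5% to 69.1%) of mural cells, with intervals that overlap slightly, against 1.92% of PBS and 0% of DTX keratinocyte-gated cells (0 of 58, upper limit 6.16%), which should lack it and had median depths of 12813.5 and 15595 UMIs before thinning.

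Il6, Lif, Il11, Il33, Csf3 and Csf2 were also higher in DTX, and Csf1 was not past 2-fold. Il6 (chr5:30013114-30019981), the cytokine that signals through Il6st, ranged from 0 through a median of 641 to 2890 CPM over PBS cells and from 0 through 1227 to 9011 CPM over DTX cells. Its summed level was 739 and 1608 CPM (log2 ratio 1.12, 1.00 to 1.25). Lif, of the same cytokine family, was at 34.6 and 137 CPM, Il11 at 230 and 497 CPM, and the alarmin Il33 at 459 and 1064 CPM. Csf3 (chr11:98701263-98703629), which encodes the neutrophil growth factor G-CSF, had 18 UMIs in 6 PBS cells and 456 UMIs in 29 DTX cells, or 20.1 and 282 CPM (3.75, 3.13 to 4.58). This was the largest ratio among genes with at least 100 UMIs and a UMI in at least 10% of the cells of the higher library. A single DTX cell held 27.9% of the DTX UMIs of Csf3. Csf2, which encodes GM-CSF, had 2 and 54 UMIs, while the macrophage growth factor Csf1 was at 347 and 389 CPM (0.16, -0.03 to 0.36). The eosinophil chemokine Ccl11 was at 125 and 516 CPM with a UMI in 16 and 52 cells.

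Monocyte chemokines were less uniform. Ccl2, the main ligand of CCR2, ranged from 79.3 through 6804 to 23874 CPM over PBS cells and from 0 through 8410 to 30082 CPM over DTX cells, and its summed level was 7039 and 9631 CPM (log2 ratio 0.45, 0.41 to 0.49). Ccl7, another CCR2 ligand, went the other way, at 1998 and 1395 CPM (-0.52, -0.61 to -0.43). Cxcl10 was at 426 and 316 CPM. Ccl8 had the lowest ratio of the list at -1.75, with 76.6% of its DTX UMIs in 1 cell. Cxcl9 had 24 and 149 UMIs, and 1 cell held 45.8% of them in PBS and 45.6% in DTX.

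**Figure D4:**
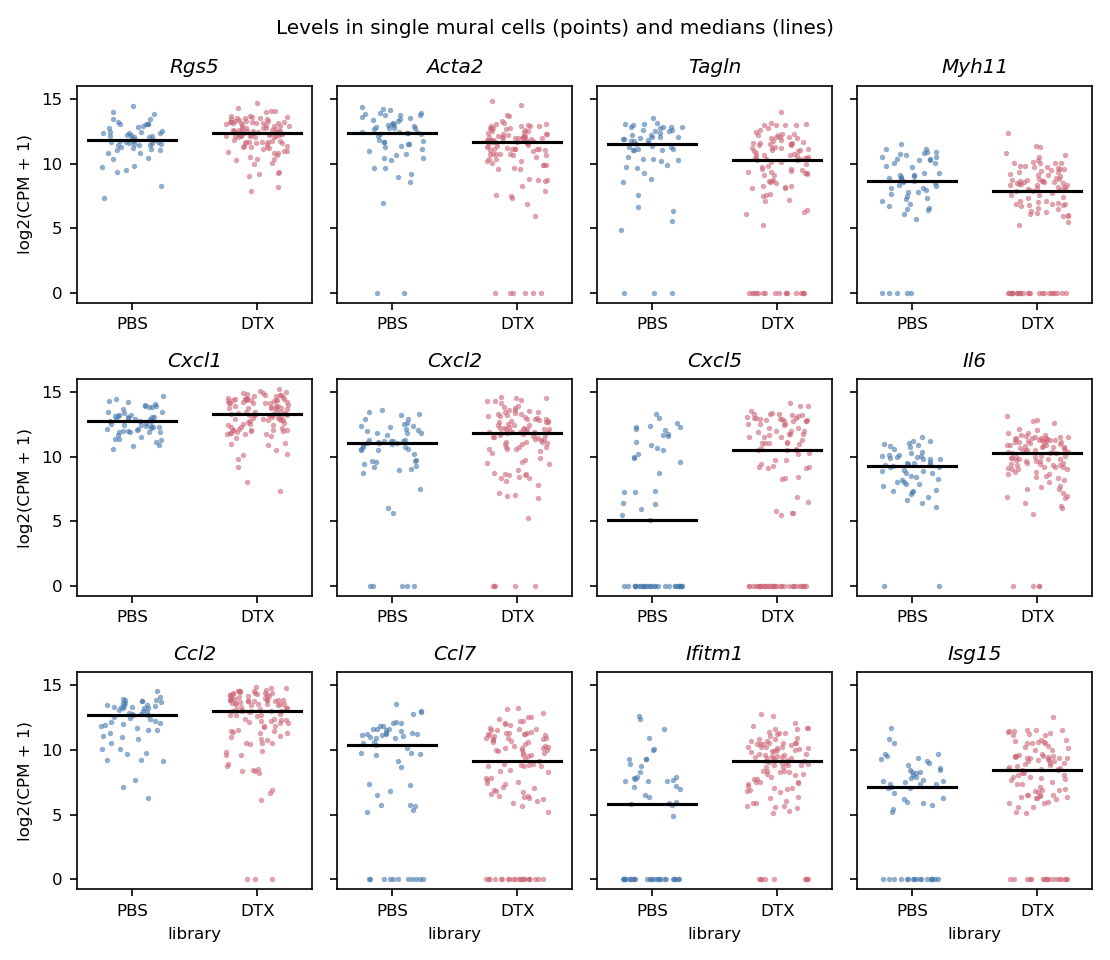
Level in each mural cell (points, vertical axis log2 of CPM plus 1) of 12 genes, 1 panel per gene, with PBS and DTX cells side by side and a line at the median. The cells of both libraries overlap in every panel, with median Cxcl1 at 6860 CPM in PBS and 10248 CPM in DTX and median Acta2 at 5384 and 3249 CPM.

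The promoters of the chemokine and cytokine list were read from the RefSeq promoter table (GRCm38.p6, the 250 bases before the start). The letters GGGANNTTCC, which match the form bound by NF-kB, the transcription factor of the response to interleukin 1 and TNF, were searched on both strands. They were present in 1.36% of 27025 genes with a promoter in the table and in 6 of the 17 list genes found there, Csf1, Il6, Cxcl3, Cxcl1, Cxcl2 and Cxcl10. In the list of genes that answer to NF-kB, interleukin 1 and interleukin 6 they were present in 2 of 24 genes. They were present in 3 of 17 interferon-stimulated, 0 of 16 contractile and 0 of 15 pericyte genes. A match is a run of letters and no measurement of binding. Of the 6 chemokine list genes with a match, Csf1 was not past 2-fold and Cxcl10 was lower in DTX. Lif, Il11 and Il33 were higher in DTX and had no match, and Cxcl5, Ccl2 and Csf3 had no promoter in the table. The promoters of Cxcl1 (chr5:90890995-90891244, plus strand), Cxcl2 (chr5:90903649-90903898, plus strand) and Il6 (chr5:30012864-30013113, plus strand) are shown 5′ to 3′ with the match in capitals, since these are the most abundant list genes with one. In Cxcl1 and Cxcl2 matches on both strands overlap, which gives the same 11 letters in both genes, from 71 to 61 bases before the start in Cxcl1 and from 97 to 87 in Cxcl2. In Il6 the match lies 44 to 35 bases before the start.
Cxcl1: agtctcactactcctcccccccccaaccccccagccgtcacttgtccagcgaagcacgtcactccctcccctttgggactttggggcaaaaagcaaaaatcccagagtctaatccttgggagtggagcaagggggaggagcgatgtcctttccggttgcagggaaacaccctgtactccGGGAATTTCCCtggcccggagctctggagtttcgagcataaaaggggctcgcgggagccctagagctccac
Cxcl2: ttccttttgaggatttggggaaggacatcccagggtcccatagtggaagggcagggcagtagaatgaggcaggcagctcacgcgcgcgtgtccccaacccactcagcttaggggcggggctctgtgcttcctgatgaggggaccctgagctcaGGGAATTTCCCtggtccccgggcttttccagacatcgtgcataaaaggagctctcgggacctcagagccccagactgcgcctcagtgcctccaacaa
Il6: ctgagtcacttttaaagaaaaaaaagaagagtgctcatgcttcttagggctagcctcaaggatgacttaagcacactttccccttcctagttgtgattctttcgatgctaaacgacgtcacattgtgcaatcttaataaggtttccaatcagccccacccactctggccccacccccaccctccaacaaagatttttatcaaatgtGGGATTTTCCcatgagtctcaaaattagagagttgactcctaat

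The list of genes that answer to NF-kB, interleukin 1 and interleukin 6 went in both directions. Higher were 17 of its 27 compared genes, the median log2 ratio stood at 0.35, and none was at least 2-fold higher while 4 were at least 2-fold lower. These 2-fold counts depended on the members. Without members with fibroblast RNA, defined below, 2 of 24 were 2-fold higher and 1 lower. With the rule applied to counts thinned to 5000 UMIs, 4 of 26 were 2-fold higher and 3 lower. With a mitochondrial limit of 10% the list was split evenly, 14 genes on each side of 0, and its median was 0.11, and with no filter on UMIs the median was 0.06. Nfkbia, the inhibitor that NF-kB itself induces, was the most abundant at 1259 and 1626 CPM (0.37, 0.27 to 0.47). The mitochondrial superoxide dismutase Sod2 had the largest ratio, at 370 and 733 CPM (0.99, 0.81 to 1.17). The acute phase gene Saa3 (-2.59), the complement gene C3 (-1.67) and the cyclooxygenase gene Ptgs2 (-1.21) were lower, and 54.0% of the PBS UMIs of Saa3 came from 1 cell.

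Interferon-stimulated genes were higher in DTX mural cells without exception among those compared. Of 20 list genes 16 had enough UMIs, and all 16 had a ratio above 0, with a median log2 ratio of 0.90, and the list made up 0.702% of UMIs in PBS and 1.07% in DTX. Some of the 16 passed the filter mainly through their DTX UMIs. With no filter 19 of 20 were higher and the median was 0.77. With a minimum of 200 UMIs all 9 compared were higher, the median was 0.63 and 3 were past 2-fold. With a mitochondrial limit of 10%, 15 of 17 were higher, the median was 0.42 and 3 were past 2-fold. Ifitm3, an antiviral membrane protein and the most abundant member, ranged from 863 through a median of 2608 to 6457 CPM over PBS cells and from 873 through 3755 to 16736 CPM over DTX cells (summed 2751 and 4032 CPM, log2 ratio 0.55, 0.48 to 0.62). Its relative Ifitm1 (GRCm38 chr7:140967221-140969825) was at 0 to 6466 CPM with a median of 54.8 in PBS cells and at 0 to 6937 CPM with a median of 560 in DTX cells. The summed levels of Ifitm1 were 290 and 878 CPM (1.59, 1.41 to 1.79). It had a UMI in 30 of 55 and 96 of 105 cells, and in cells thinned to 2000 UMIs it was found in 27.3% (16.1% to 41.0%) of PBS and 57.7% (47.6% to 67.3%) of DTX mural cells, against 0.512% and 1.72% of keratinocyte-gated cells. Isg15 (chr4:156199424-156200818), a ubiquitin-like protein, was at 235 and 639 CPM (1.44, 1.23 to 1.67), and the guanylate-binding protein Gbp2 at 97.2 and 247 CPM (1.34, 1.01 to 1.70).

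The classical members with low levels were concentrated in few cells. Ifit1 (chr19:34640871-34650009) had 8 UMIs in 5 PBS cells and 114 in 27 DTX cells (log2 ratio 2.85, 1.95 to 4.23), of which 1 cell held 39.5%. With a mitochondrial limit of 10% its ratio was 0.19. Ifit3 had 4 and 53 UMIs and Rsad2 2 and 48. At the other end, the class I histocompatibility gene H2-D1 (0.10) and its light chain B2m (0.25) differed least.

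The same reading was made for GAAANNGAAA, the repeat bound by interferon-activated factors of the STAT and IRF families. It was present on either strand in 3.46% of 27025 genes and in 10 of the 17 interferon-stimulated genes found in the table. Isg15 (chr4:156200819-156201068, minus strand) and Ifit1 (chr19:34640639-34640888, plus strand) are shown as members with several matches, 5′ to 3′ in the direction of the gene with the matches in capitals. Isg15 holds 3 overlapping matches between 78 and 57 bases before the start, and Ifit1 holds 2 matches on the opposite strand between 104 and 76 bases before it.
Isg15: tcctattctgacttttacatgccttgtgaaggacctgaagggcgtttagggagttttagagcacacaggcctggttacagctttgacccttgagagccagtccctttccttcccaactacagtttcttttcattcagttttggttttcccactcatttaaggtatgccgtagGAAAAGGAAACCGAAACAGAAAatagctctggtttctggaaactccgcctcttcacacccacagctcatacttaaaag
Ifit1: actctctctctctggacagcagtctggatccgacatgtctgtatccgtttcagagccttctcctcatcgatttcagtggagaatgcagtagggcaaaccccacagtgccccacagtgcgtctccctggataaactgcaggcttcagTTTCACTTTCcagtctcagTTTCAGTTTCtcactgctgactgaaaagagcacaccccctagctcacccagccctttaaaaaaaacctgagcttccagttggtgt

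Contractile genes were lower in DTX. The list took 2.19% of mural UMIs in PBS and 1.51% in DTX, 15 of 18 compared genes were lower and 3 higher, and the median log2 ratio was -0.61 (-0.63 without the 4 keratin-carrying cells). Acta2 (GRCm38 chr19:34241090-34255590), the smooth muscle actin, ranged from 0 through a median of 5384 to 21274 CPM over PBS cells and from 0 through 3249 to 29889 CPM over DTX cells. The highest cell was thus a DTX cell, and the ranges overlap fully. The summed level of Acta2 was 6701 CPM (6532 to 6873) in PBS and 3871 CPM (3775 to 3968) in DTX, a log2 ratio of -0.79 (-0.84 to -0.74), and 53 of 55 and 99 of 105 cells had a UMI. Tagln (chr9:45929619-45936058), an actin-bundling protein, had a median cell at 2971 CPM in PBS and 1249 CPM in DTX and summed levels of 3312 and 1983 CPM (-0.74). Myh11 (chr16:14194535-14291372), the smooth muscle myosin heavy chain, was at 583 and 381 CPM (-0.61, -0.78 to -0.44), and the light chain Myl9 at 2004 and 1137 CPM (-0.82). Actg2, the enteric smooth muscle actin, was at 407 and 144 CPM (-1.50, -1.75 to -1.26).

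Cnn1, which encodes calponin, had 54 and 23 UMIs (log2 ratio -2.01), the lowest of the list, and the calcium store protein Casq2 57 and 36 UMIs (-1.47). The exceptions were the intermediate filament gene Des, at 632 and 746 CPM (0.24, 0.09 to 0.39), Synpo2 (0.25, -0.08 to 0.59) and Sncg (0.18). When cells were thinned to 2000 UMIs, Acta2 was found in 90.9% of PBS and 84.6% of DTX mural cells while keratinocyte-gated cells had it in 0.639% and 1.72%. The CArG box, the motif of serum response factor in many contractile genes, was found on either strand in 1.62% of genes in the RefSeq promoter table. It was found in 1 of the 16 contractile genes matched there, Myl9. Tagln and Myh11 had no promoter in the table and were not read. Acta2 was read and had no match. The search took a single letter pattern in the short stretch before the start. Variant or more distant sites would be missed, so no lack of the motif is read from these numbers.

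Genes of the pericyte list were found on both sides of 0. Without the 5 genes that the rule requires, 6 of 15 compared genes stood above 0 and 9 below it, and the median log2 ratio was -0.17. With those 5 the numbers were 10 and 10 of 20 and the median was -0.07, which is a description, since their UMIs selected the cells. The metalloreductase Steap4 (0.91, 0.54 to 1.31) was higher. Cspg4, the proteoglycan NG2, was at 116 and 54.5 CPM (-1.08, -1.52 to -0.67), and Kcnj8, the pore-forming subunit of a potassium channel, at 41.3 and 24.8 CPM (-0.72). With a mitochondrial limit of 10%, and also with 10 CPM added, 0 genes of the list were 2-fold lower. Vtn, which encodes vitronectin, was at 131 and 214 CPM. The median of the whole list changed sign over the alternatives, from -0.18 to 0.12 with the 2000-gene limit left aside.

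Signalling genes of the vessel wall were also divided. Of 22 compared vessel genes 10 were higher and 12 lower, and 1 was past 2-fold. This was Ednrb, a receptor for endothelins, whose median cell was at 125 CPM in PBS and 535 CPM in DTX and whose summed level was 247 and 658 CPM (log2 ratio 1.41, 1.20 to 1.63). Nrp2, a co-receptor for VEGF and semaphorins, was at 182 and 313 CPM (0.78), Tgfb1 at 58.1 and 106 CPM (0.86) and Tgfb3 at 57.0 and 30.9 CPM (-0.86). In the Notch pathway, without the selection gene Notch3, 4 of 6 compared genes were higher, with the receptor Notch2 at 0.68 and the ligand Jag1 at 0.50, and Nrarp, a feedback inhibitor and Notch target, was at 108 and 40.2 CPM (-1.41, -1.91 to -0.96). With a mitochondrial limit of 10%, 0 of the 8 Notch genes then compared were past 2-fold. The PDGF family had 3 compared genes, Pdgfa at 851 and 782 CPM, Pdgfrb at 203 and 181 CPM and Pdgfrl at 46.9 and 60.0 CPM, and none was past 2-fold. Pdgfrb is a selection gene, so its values are a description.

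Matrix genes took 1.40% of mural UMIs in PBS and 1.47% in DTX for the basement membrane list, and 3.02% and 2.71% for the interstitial list. The basement membrane list summed to 14050 and 14733 CPM, with 10 of 14 compared genes higher and a median log2 ratio of 0.20. Sparc, a collagen-binding glycoprotein and its most abundant gene, ranged from 404 through a median of 8286 to 22594 CPM over PBS cells and from 2048 through 7985 to 23671 CPM over DTX cells. Col4a1, a chain of the type IV collagen network, was at 2164 and 2778 CPM (0.36, 0.28 to 0.44), Col18a1 at 0.65, the heparan sulphate proteoglycan agrin, from Agrn, at 36.9 and 78.6 CPM (1.07, and 0.98 without the 4 keratin-carrying cells) and perlecan, from Hspg2, at -0.29. Without those 4 cells 9 of the 14 basement membrane genes were higher and the median was 0.10. In the interstitial list 12 of 26 genes were higher, and the median was -0.04 (9 of 26 and -0.12 without the 4 keratin-carrying cells). The median cell had 2.03% of its UMIs in the interstitial list in PBS and 2.33% in DTX, against summed shares of 3.02% and 2.71%. Col3a1 was the most abundant gene of this list at 6246 and 5324 CPM (-0.23), and Col1a1 was at 3608 and 2754 CPM (-0.39, and 0.07 without the members with fibroblast RNA described next).

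Single cells held much of the RNA of some interstitial genes. Lum (-1.71) and Dcn (-1.08), small proteoglycans made mainly by fibroblasts, had 29.6% and 38.5% of their PBS UMIs in 1 cell each. All 9 compared fibroblast markers were lower in DTX in the summed RNA, with a median of -0.68. The median cell went the other way, with 0.492% of its UMIs in the fibroblast markers in PBS and 0.646% in DTX. An alternative chosen after seeing the data left out members with a Pdgfra UMI or at least 20 UMIs of Dcn and Lum and kept 48 and 93 cells. It limits the fibroblast markers by construction, so nothing is read from it for them. Mgp, an inhibitor of calcification, was at 401 and 1031 CPM (1.36), but 1 cell held 45.6% of its DTX UMIs, and its ratio was 0.48 with an Rgs5 minimum of 5 UMIs and 0.24 without the members under 5 Acta2 UMIs.

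Proteases and their inhibitors had 11 of 17 genes higher and 4 at least 2-fold higher. With a mitochondrial limit of 10% 2 were at least 2-fold higher. Serpine2, a thrombin and plasmin inhibitor also called protease nexin, had a median cell at 405 CPM in PBS and 1083 CPM in DTX and a summed level of 450 and 1227 CPM (log2 ratio 1.44, 1.29 to 1.60). Adamts4 was at 222 and 532 CPM (1.25) and Adamts9 at 170 and 393 CPM (1.21), both metalloproteases that cut proteoglycans. The complement inhibitor Serping1 was the most abundant member at 865 and 1274 CPM (0.56). Mmp3, or stromelysin, was at 246 and 53.8 CPM (-2.17), with 62.7% of its PBS UMIs in 1 cell.

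Stress, metabolic and cycle genes did not share a direction. Lower were 17 of 24 immediate early and heat shock genes, and the median was -0.33 (14 of 24 and -0.26 without the 4 keratin-carrying cells). Those at least 2-fold lower were transcription factors and regulators of the early response, Klf2 (-1.34), Atf3 (-1.20), Ier2 (-1.16), Klf4 (-1.13) and Btg2 (-1.09). With a mitochondrial limit of 10%, 2 genes of the list were 2-fold lower and 0 higher. With the rule applied to counts thinned to 5000 UMIs, 2 were 2-fold lower and 1 higher. Without the members with fibroblast RNA, 3 were 2-fold lower and 3 higher, and the median was -0.14. Hsp90aa1 was the most abundant at 1159 and 1491 CPM, and Hspa1a was at 301 and 454 CPM (0.59), although reads of its near-identical copy Hspa1b may be split between the pair. In the glycolysis and hypoxia list 6 of 18 genes were higher, with the glucose transporter Slc2a1 (1.03) and hexokinase Hk2 (1.01) just past 2-fold, Gapdh at 1535 and 1167 CPM (-0.39) and Eno1 at -0.57. With a mitochondrial limit of 10%, with the mean of per-cell CPM or with 10 CPM added, none of the list was 2-fold higher, and without the 4 keratin-carrying cells Hk2 was at 0.98. Cholesterol synthesis genes were low, 393 and 423 CPM in sum, with 6 of 7 higher and a median of 0.40 (327 and 423 CPM and a median of 0.53 without the 4 keratin-carrying cells), from the regulator Srebf2 (0.57) to Fdps (-0.71). Cell cycle genes summed to 1057 and 974 CPM, 5 of 14 were higher and none was past 2-fold. Without the 4 keratin-carrying cells, and likewise without cells called doublets, 2 of 14 were higher, and with the rule applied to counts thinned to 5000 UMIs 1 of 13 was higher with a median of -0.49, against -0.08 over all mural cells. Among the cell cycle genes were Stmn1 at 183 and 170 CPM, Pcna (0.37) and Mcm6 (-0.65), and Mki67, a marker of cycling cells, was at 35.7 and 38.4 CPM.

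Among all genes with at least 100 UMIs and a UMI in at least 10% of the cells of the higher library, the 10 largest ratios were those of Csf3, Hp, Ifit1, Ccl11, Lif, Ccl5, H2-Ab1, Cxcl9, Csgalnact1 and Enpp2. Hp, the hemoglobin scavenger haptoglobin, had 4 UMIs in 2 PBS cells and 112 in 21 DTX cells (log2 ratio 3.68, 2.56 to 5.86). Enpp2, which encodes autotaxin, had 18 and 106 UMIs (1.66) and the chondroitin sulphate enzyme Csgalnact1 14 and 86 UMIs (1.70). H2-Ab1, a class II histocompatibility gene of antigen-presenting cells, had 71.8% of its DTX UMIs in 1 cell, and its ratio was 0.08 without cells called doublets. The T cell and macrophage chemokine Ccl5 had 14 and 100 UMIs, with 85.7% of them in 1 cell in PBS and 34% in 1 cell in DTX.

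The smallest ratios belonged to keratinocyte genes, among them Asprv1, Perp, Krtdap, Sprr1a, Serpinb5, Krt1, Cldn4, Calm4 and Lgals7. Lgals7 had 1014 UMIs in PBS and 34 in DTX, and Asprv1 had 144 and 0 UMIs, at least 86.6-fold lower when 3 counts are taken for the 0. Without the 4 keratin-carrying cells, the epidermal growth factor ligand Areg entered the highest ratios with 15 and 249 UMIs (2.99), although over all mural cells its ratio was 0.36 and without the members with fibroblast RNA -0.24. Also entering was tissue factor, from F3, with 129 and 924 UMIs (1.84), and Serpina3g (1.80), a serpin. The lowest ratios were then those of Gm47283 (-4.91), Saa3 (-2.73), Cpxm1 (-2.55), Mmp3 (-2.30), Col14a1, Ly6c1, Ctla2a, Mfap4, Ccl8 and Lum. Single cells held much of the RNA of several of these. For Ctla2a 1 cell held 92.1% of the UMIs in PBS and 63.0% in DTX. For Ly6c1 the share was 54.7% in PBS, and for Mfap4 73.0% in DTX. Gm47283, annotated on the Y chromosome, had 195 and 10 UMIs over all mural cells. It was at 170 and 2.87 CPM in the other kept cells, so the difference was not limited to mural cells. Xist, the transcript of the inactive X chromosome, had 0 and 1 UMI in mural cells, and the study's methods state male mice.

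Contractile RNA also varied among cells of the same library. Mural cells of each library were ranked by the share of UMIs in the contractile list without Acta2 and divided into terciles, a range without a natural border, of 19, 18 and 18 PBS cells and of 35 DTX cells each. The terciles spanned 0.18% to 1.14%, 1.20% to 1.88% and 1.94% to 3.99% in PBS, and 0.04% to 0.71%, 0.73% to 1.25% and 1.26% to 6.15% in DTX. Acta2, left out of the ranking, was higher in the highest tercile than in the lowest by a log2 ratio of 2.75 in PBS and 2.51 in DTX. Of all genes with at least 50 UMIs over both terciles, 48.9% of 1814 were lower in the highest tercile in PBS and 54.3% of 3082 in DTX, with median log2 ratios of 0.01 and -0.03. Over cells the Spearman correlation of Acta2 with Myh11 was 0.56 in PBS (n = 55) and 0.55 in DTX (n = 105), and that of Acta2 with Rgs5 was 0.10 and 0.08; cells of a library share its preparation and differ in depth. Cells of the highest tercile had more Notch3 (0.86 in PBS and 0.95 in DTX), Vtn (1.17 and 1.10) and the adhesion molecule Mcam (1.10 and 1.53). Those of the lowest tercile had more Abcc9 (-2.51 and -1.09), Steap4 (-1.52 and -1.80) and Mgp, which had 170 UMIs in the lowest and 0 in the highest tercile in PBS. Fibroblast markers moved with the same end. Their list summed to 22017 CPM in the lowest and 7114 CPM in the highest PBS tercile (8 of 8 compared genes lower in the highest, median -2.80) and to 10504 and 7807 CPM in DTX (6 of 8 lower, median -0.92), and Dcn had 1380 and 38 UMIs and Lum 445 and 8 UMIs in PBS. The part of fibroblast RNA in the tercile differences was not tested.

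Chemokines went both ways along this range. Between the highest and the lowest tercile the log2 ratio of Cxcl1 was 0.19 in PBS and -0.01 in DTX, that of Ccl2 0.58 and 0.39, and the list medians were 0.25 and -0.01. In PBS Cxcl3 (2.90, 2.51 to 3.33) and Cxcl5 (1.59, 1.37 to 1.81) were higher in the highest tercile, whereas in DTX Cxcl3 was at 0.99 and Cxcl5 at -0.65. Cxcl10, a T cell chemokine, was lower in the highest tercile of both libraries (-3.60 and -2.28). Its relative Cxcl9 had 18 UMIs in the lowest and 1 in the highest tercile in PBS and 127 and 15 in DTX, and the monocyte chemokine Ccl8 had 112 and 2 in PBS and 14 and 1 in DTX. The interferon list had medians of -0.19 and -0.21. Over cells the chemokine share and the contractile share of UMIs had a Spearman correlation of 0.19 in PBS and 0.08 in DTX. Cxcl1 and Il6 had 0.27 and 0.58. The immediate early and heat shock list was lower in the highest tercile for 24 of 24 genes in PBS, with a median of -1.32, against a median of -0.26 in DTX, and 3 of the 4 keratin-carrying cells lay in the lowest PBS tercile. Csf3 was lower in the highest DTX tercile (-2.13), while in PBS both terciles had 6 UMIs.

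**Figure D5:**
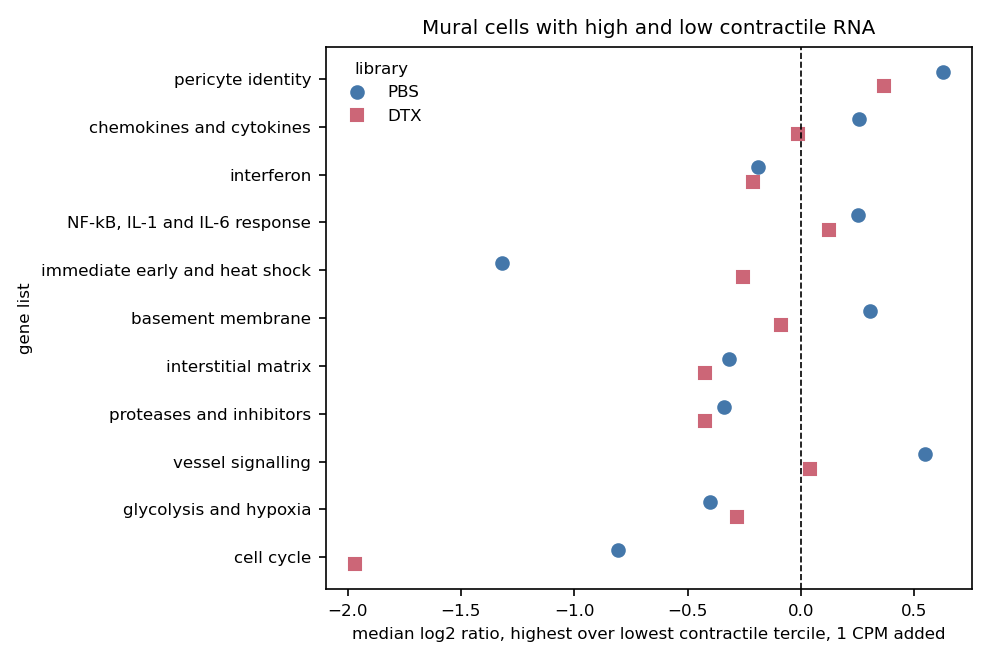
Median log2 ratio of the highest to the lowest tercile of mural cells ranked by contractile RNA, with 1 CPM added (horizontal axis), for 11 gene lists (rows) in PBS (circles) and DTX (squares). Chemokines lie at 0.25 and -0.01, and the immediate early and heat shock list lies at -1.32 in PBS and -0.26 in DTX.

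Set beside other cells of the same libraries, parts of the mural pattern were also found in fibroblast-gated cells, chosen on Pdgfra, Dcn and Lum, and in endothelial-gated cells. Cxcl1 was at 3710 and 6206 CPM in fibroblast-gated and at 2173 and 3951 CPM in endothelial-gated cells, and at 393 and 199 CPM in macrophage-gated cells. Il6 was at 286 and 649 CPM and Cxcl5 at 771 and 1535 CPM in fibroblast-gated cells, in each case below the mural level, whereas Ccl2 was at 8743 and 7677 CPM there. Over the chemokine list the median log2 ratio was 0.43 in fibroblast-gated, -0.47 in endothelial-gated, -1.13 in macrophage-gated and -1.32 in keratinocyte-gated cells. In this order 15 of 24, 5 of 16, 6 of 22 and 4 of 16 compared genes were higher, and the median over all genes of the fibroblast-gated cells was 0.10. Csf3 was higher in endothelial-gated than in mural cells, at 769 and 1720 CPM. Ifitm1 was at 64.3 and 75.8 CPM in fibroblast-gated and at 58.6 and 705 CPM in macrophage-gated cells, and the interferon list had medians of 0.23 in fibroblast-gated, 0.42 in endothelial-gated, 0.12 in macrophage-gated and 0.24 in keratinocyte-gated cells. In the same order 12 of 19, 13 of 14, 14 of 20 and 7 of 10 compared interferon genes were higher. For the contractile list the median was 0.40 in fibroblast-gated and 0.27 in endothelial-gated cells, but -0.68 in macrophage-gated cells, where 10 of 11 compared genes were lower, and 0.01 in keratinocyte-gated cells, beside a mural median of -0.61. Keratinocyte markers were lower in DTX in these classes as well, with medians of -2.98, -2.80 and -2.05 in fibroblast-, endothelial- and macrophage-gated cells. Whether the treatment, the makeup of the libraries or the sampled mice bear on these differences cannot be told apart with 1 library of each.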

How the data were processed

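The authors deposited filtered count matrices (UMIs by gene and cell). The submitters' processing notes name Cell Ranger 6.1.1 and the mm10 genome, and the study's methods name an earlier Cell Ranger version. The matrices held 12058 cells and 105511870 UMIs in the PBS library and 11031 cells and 81858751 UMIs in the DTX library. Whether a library joins the technical replicates is not given in the sources used here. Of 31053 gene rows 71 repeat a symbol, and the first row of each was kept. Kept were 8326 and 7188 cells, those with 500 genes or more and no more than 6% mitochondrial UMIs, and the other classes were gated on UMIs of their markers, so no clustering was used. The members, gene lists and gates were chosen with earlier results of these data known.

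Raw UMIs were summed over the mural cells of a library, scaled to CPM and compared as log2((DTX + 1)/(PBS + 1)) for genes with at least 50 UMIs. Intervals are exact, from the conditional binomial distribution for ratios, the Poisson distribution for CPM and Clopper-Pearson for shares, at 95%. With 1 library per group no p-value was computed, and counts that are at least 2-fold apart stand in for calls. The script was tested on simulated data. Genes were named by rule: markers and selection genes, the most abundant and the 2 extreme genes of each list, the 10 largest and 10 smallest ratios among genes with at least 100 UMIs and a UMI in at least 10% of cells of the higher library, the 10 genes most enriched over other kept cells, and Mrc1. Some genes that the rule names are not reported here. Other genes in the text were picked from the same lists for their role or after their values were seen. Free RNA was judged by the share of keratinocyte-gated cells with a UMI.

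Doublets were not removed in the main values. As an alternative, Scrublet (scanpy 1.11.5) took out 382 PBS cells (4.59%) at its own threshold. In DTX that threshold took none, so the top 8.00% of scores, 575 cells, were taken out. This removed 1 PBS and 4 DTX mural cells. The other alternatives changed the limits on genes, mitochondrial UMIs, Rgs5 and Lyz2, the depth at selection, the weight of cells, the value added, the filter and the scaling. Analyses used Python 3.11.15, numpy 2.4.6, scipy 1.17.1, pandas 2.3.3, anndata 0.12.19 and matplotlib 3.10.9. Gene positions came from the GRCm38 annotation and promoters from RefSeq (GRCm38.p6).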

Additional observations from a re-analysis of the deposited data

How the results depend on the processing

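Of 116 values of the main results under the alternatives 102 were classed as near the reported value and 14 as moved. Among 1258 further values 1062 were classed as near, 195 as moved and 1 as reversed. The tolerance of these classes is not given here, so the counts are a rough guide only. An upper limit of 2000 genes per cell left 3 mural cells in each library and 84 genes, with shares of 0.119% in PBS and 0.114% in DTX, 22 genes higher and 13 lower by 2-fold, and medians of 0.45 for the pericyte list and -1.11 for the contractile list. A mitochondrial limit of 10% gave shares of 1.13% and 2.23%. Adding 10 CPM gave 84 genes 2-fold higher, 1.52% of 5539, against 1.88% lower. A minimum of 200 UMIs gave 48 higher and 35 lower, 2.48% and 1.81% of 1934 genes, with a contractile median of -0.46. No filter gave 1179 higher and 2013 lower, 8.07% and 13.8% of 14616 genes. Leaving the 2000-gene limit aside, the list medians spanned -0.71 to -0.46 for contractile genes, 0.76 to 1.11 for chemokines and 0.42 to 1.06 for interferon genes, and that of the pericyte list changed sign, from -0.18 to 0.12, as did those of the interstitial, cell cycle, Notch and vessel lists and of the Schwann cell markers. Those of the fibroblast markers did so where the alternative limits these genes by construction. For the 68 genes followed singly, 994 of 997 ratios kept their sign with that limit left aside; Mmp3 turned to 0.16 when the rule was applied to counts thinned to 5000 UMIs, and Col1a1 (0.07) and Areg (-0.24) turned without the members with fibroblast RNA. At the 2000-gene limit Cxcl1 was at -0.41. The causes were not tested. Alternatives without the keratin-carrying, fibroblast-RNA or low-Acta2 members were chosen after seeing the data. No paired analysis was possible because each treatment had 1 library, and for the same reason no replicate could be left out. With 55 and 105 cells, genes under 50 UMIs were left out of the main comparison, a chosen limit.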

Other observations

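A decoy receptor for interleukin 1, Il1r2, was the most abundant gene of the neutrophil list in mural cells, with 37 UMIs in PBS and 116 UMIs in DTX (41.3 and 71.8 CPM), while the neutrophil genes S100a8 and S100a9 had 0 UMIs in PBS and 5 and 11 UMIs in DTX. The macrophage gene Tyrobp had 2 and 37 UMIs. Cxcl1 stood at 199 CPM in macrophage-gated and 222 CPM in neutrophil-gated DTX cells, against 12304 CPM in the mural cells. No value could be screened for samples that stand apart, because such screening needs several libraries per group.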
